A study of Mus musculus with 5 samples.

Results

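Binding of the chromatin remodeller ATRX was examined at 10 mouse genes of the neuronal cytoskeleton and growth cone: the tubulin gene Tubb3, the microtubule-associated protein genes Dcx, Map2, Mapt and Map1b, the growth cone genes Stmn2 and Gap43, and the neurofilament genes Nefl, Nefm and Nefh. They were taken by name from 21887 protein-coding genes of the RefSeq annotation of GRCm38, and all 10 were found there. The data are lists of ATRX peaks from chromatin immunoprecipitation and sequencing (ChIP-seq) of cultured primary neurons, prepared from C57BL6/J embryos at embryonic day 15.5 to 17.5, kept in medium with 2% fetal bovine serum and infected with lentivirus at day 5 in vitro. The control expressed mCherry, a fluorescent protein, and was collected at 14 days in vitro (DIV14). A second DIV14 culture expressed TBC1D3, a gene of humans and other hominoids that mice lack, and another a construct labelled MICAL1-M1, MICAL1 being a flavoprotein oxidase that acts on actin filaments. A further library came from mCherry neurons at 7 days in vitro (DIV7), called young neurons in the series design. The promoter that drives each virus, the share of infected cells and the number of animals per culture were not given in the sources used here. With 1 library per group, there was no replicate error and no test between conditions.

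Neurons build their axons and dendrites on microtubules. Class III beta-tubulin, encoded by Tubb3, is a neuron-specific subunit of these polymers, Dcx and Map1b bind and stabilise them in young neurons, and Map2 and Mapt (tau) are the main binding proteins of dendrites and axons. Stmn2 binds tubulin and promotes microtubule turnover, and Gap43 is a membrane-attached protein of growth cones. Neurofilaments, formed from the light, medium and heavy chains encoded by Nefl, Nefm and Nefh, accumulate in axons as neurons mature. ATRX works with the histone chaperone DAXX and is known for binding heterochromatin, repeats and G-rich DNA.

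The lists held 96670 peaks in the control, 199059 with TBC1D3, 141387 with MICAL1-M1 and 213982 at DIV7, and each reaches up to an uncorrected p of 0.05 by the authors' caller. Fold and p together gave back the whole number of fragments at each summit and the background it was compared with. The fold has 1 added to both, so it is lower than fragments divided by background. That background was most often 3.56 fragments in the control, 2.61 with MICAL1-M1, 1.28 at DIV7 and 1.22 with TBC1D3, so the control and MICAL1-M1 libraries were the deeper pair. At that background, 3 fragments were enough for a peak with TBC1D3 or at DIV7, against 5 with MICAL1-M1 and 7 in the control. The share of peaks with a q, the p corrected over the genome, of at most 0.05 was 4.19% in the control, 0.463% with MICAL1-M1, 0.236% at DIV7 and 0.205% with TBC1D3. Peak names inside the list filed under MICAL1-M1 begin with M2, and the group is given below as its sample label has it. ATRX peaks do not measure expression, so the labelled cell type could not be checked against these genes.

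The promoter sequences below show how differently the starts of 3 of these genes are built. RefSeq entries of 300 bases, running from 250 before to 50 after a start of transcription in GRCm38.p6, matched 4 of the 10 genes (Tubb3, Dcx, Map2 and Map1b). Shown are those with the 3 highest folds of a summit within 1 kb of the start, as no such summit had a q of at most 0.05. Capitals mark CG dinucleotides. The regions are chr1:66175079-66175378 on the plus strand for Map2, chr8:123411303-123411602 on the plus strand for Tubb3 and chrX:143933170-143933469 on the minus strand for Dcx, each read 5′ to 3′ along its gene.
Map2: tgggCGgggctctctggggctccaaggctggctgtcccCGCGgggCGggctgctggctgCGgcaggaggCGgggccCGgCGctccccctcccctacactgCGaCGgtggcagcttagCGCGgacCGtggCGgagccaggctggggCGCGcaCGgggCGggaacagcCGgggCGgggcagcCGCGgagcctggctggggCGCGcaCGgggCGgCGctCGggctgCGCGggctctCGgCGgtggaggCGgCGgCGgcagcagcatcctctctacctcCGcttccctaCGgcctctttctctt
Tubb3: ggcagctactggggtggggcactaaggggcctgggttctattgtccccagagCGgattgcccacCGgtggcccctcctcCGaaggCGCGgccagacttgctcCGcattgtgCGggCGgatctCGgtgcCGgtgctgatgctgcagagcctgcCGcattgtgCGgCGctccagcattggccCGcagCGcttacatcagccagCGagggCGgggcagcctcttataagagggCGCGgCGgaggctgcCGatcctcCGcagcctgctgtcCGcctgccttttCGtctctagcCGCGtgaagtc
Dcx: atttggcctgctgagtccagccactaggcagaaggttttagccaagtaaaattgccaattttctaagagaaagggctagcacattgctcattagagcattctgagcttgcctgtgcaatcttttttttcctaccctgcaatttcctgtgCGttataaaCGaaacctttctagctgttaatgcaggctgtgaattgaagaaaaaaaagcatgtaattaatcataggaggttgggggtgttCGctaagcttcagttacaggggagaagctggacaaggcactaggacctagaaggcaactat
Map2 had 37 CG dinucleotides and Tubb3 26, against a median of 7 over 32851 promoters of the same length, while Dcx had 3. The GC box GGGCGG, counted on both strands, occurred 5 times at Map2 and 2 times at Tubb3 and not at Dcx, and 35.7% of all promoters held it. A row of 4 GGG runs with 1 to 7 bases between runs, on either strand, was found at Map2 and Tubb3 and in 18.5% of all promoters. TATAAA, on either strand, was found at Dcx and in 13.6% of all promoters. Peaks of the control and of MICAL1-M1 each covered all 300 bases at Map2 and at Tubb3, a TBC1D3 peak covered 189 bases at Map2, and no peak in any of the 4 lists reached the Dcx sequence shown. Of a second Dcx promoter entry, whose start lies further into the gene, the control's peak covered 55 bases.

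Within 1 kb of either gene end, ATRX summits were found at 8 of the 10 genes in the control, where 42.3% of all protein-coding genes had one. The genes were Tubb3, Dcx, Map2, Map1b, Stmn2, Nefl, Nefm and Nefh, and Mapt and Gap43 had none. With MICAL1-M1 6 of 10 had a summit (38.7% of all genes), with TBC1D3 5 of 10 (33.4%) and at DIV7 3 of 10 (33.2%). In these bulk cultures, fewer cells with ATRX at a site and less ATRX per cell cannot be told apart, and a gene without a summit is one with no listed peak at that depth. Within 3 kb the counts were 10, 9, 8 and 9, against 53.0%, 53.2%, 57.7% and 59.3% of all genes, so the low DIV7 count within 1 kb was not seen in the wider window. With TBC1D3, 4 of the 10 genes had a summit in the control and none here (24.4% of all genes) and 1, Gap43, the reverse (15.6%). With MICAL1-M1 these numbers were 3 (15.2% of all genes) and 1, again Gap43 (11.6%). At DIV7 they were 5 (24.7%) and 0 (15.7%). The 3 comparisons share the control library.

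**Figure D1:**
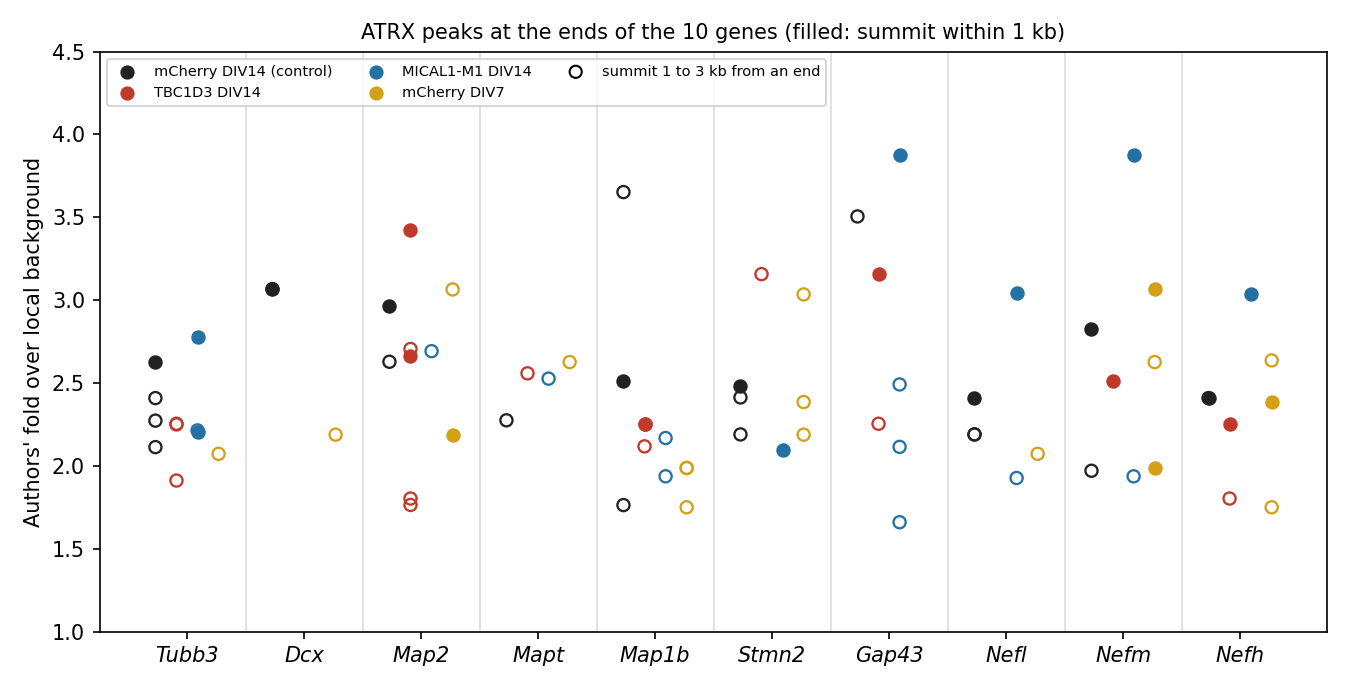
Authors' fold over the local background (linear axis) of each peak near an end of the 10 genes, by library; filled points have the summit within 1 kb of an end and open points 1 to 3 kb from it, with 1 library per group. The highest filled points are those of Gap43 and Nefm with MICAL1-M1, both 3.88-fold.

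At Tubb3 (chromosome 8, 123411553 to 123422015), the gene start was covered in the deeper pair of libraries. The control's summit lay 263 bp before the start with 11 fragments over a background of 3.56 (2.63-fold), and that of MICAL1-M1 249 bp after it with 10 fragments over 2.96 (2.78-fold). Both peaks span the start, so the summits sit on either side of it within the same interval. With TBC1D3 the nearest summit to the start lay 2025 bp inside the gene with 4 fragments, and at DIV7 1460 bp inside with 5. No Tubb3 peak in any list had a q of at most 0.05.

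Dcx (chromosome X, 143855842 to 143933396), the doublecortin gene of migrating and young neurons, had a pair of control peaks at its higher end, from which it is transcribed. Their summits lay 438 and 1721 bp inside the gene with 13 fragments each over 3.56 (3.07-fold each, q = 0.112). Neither was matched in the other lists, where Dcx summits lay at least 2879 bp from an end. Over the body of 77.6 kb there were 3 summits in the control, 1 with TBC1D3, 3 with MICAL1-M1 and 3 at DIV7. In the control this is 3.87 per 100 kb (95% exact Poisson interval 0.798 to 11.3, counting error only), and over all genes of chromosome X, where peaks were sparse, the control had 0.489. With TBC1D3 Dcx had 1.29 and chromosome X 2.10, with MICAL1-M1 3.87 and 1.16, and at DIV7 3.87 and 3.05.

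The 3 neurofilament genes differed in which libraries held them. Nefh and Nefm had a summit near their higher end in all 4 libraries, and 6.24% of protein-coding genes had one within 1 kb of either end in all 4. Nefl had one near its lower end in the deeper pair alone. The table has no strand for these genes, so which end is the start of transcription is not stated here. At Nefh (chromosome 11, 4938754 to 4948064), which encodes the heavy chain, the summits lay 240 bp inside the end in the control, 164 with TBC1D3, 145 with MICAL1-M1 and 184 at DIV7. They rested on 10, 4, 10 and 5 fragments and were 2.41-fold, 2.25-fold, 3.04-fold and 2.39-fold. The summits at Nefh thus lay between 145 and 240 bp from the end in every library, though none had a q of at most 0.05.

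Nefm (chromosome 14, 68119545 to 68125004), the medium chain gene, had its nearest summits 239 bp inside the end in the control, 307 with TBC1D3, 787 with MICAL1-M1 and 94 at DIV7. They rested on 12, 5, 13 and 6 fragments. The MICAL1-M1 peak, from 68124124 to 68125429, was 3.88-fold with q = 0.0335. In that library 2 of the 10 genes, Nefm and Gap43, had a gene-end summit with a q of at most 0.05, against 1.33% of all genes. None of the 10 had one in the control (8.47% of all genes), with TBC1D3 (0.146%) or at DIV7 (0.228%). The control's peak at Nefm was 2.83-fold, with q = 0.241.

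Nefl (chromosome 14, 68083863 to 68089095), the light chain gene next to Nefm, had a control summit 257 bp inside its lower end with 10 fragments (2.41-fold) and one of MICAL1-M1 628 bp inside it with 10 fragments (3.05-fold). With TBC1D3 no summit lay in Nefl or within 3 kb of it, and at DIV7 the only one lay 1520 bp outside the gene with 5 fragments. Occupancy in the control and MICAL1-M1 and in neither of the others was found within 1 kb at Tubb3, Stmn2 and Nefl, and at 8.74% of all genes. The deeper pair of libraries is the same pair, and the part of depth in this was not tested.

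**Figure D2:**
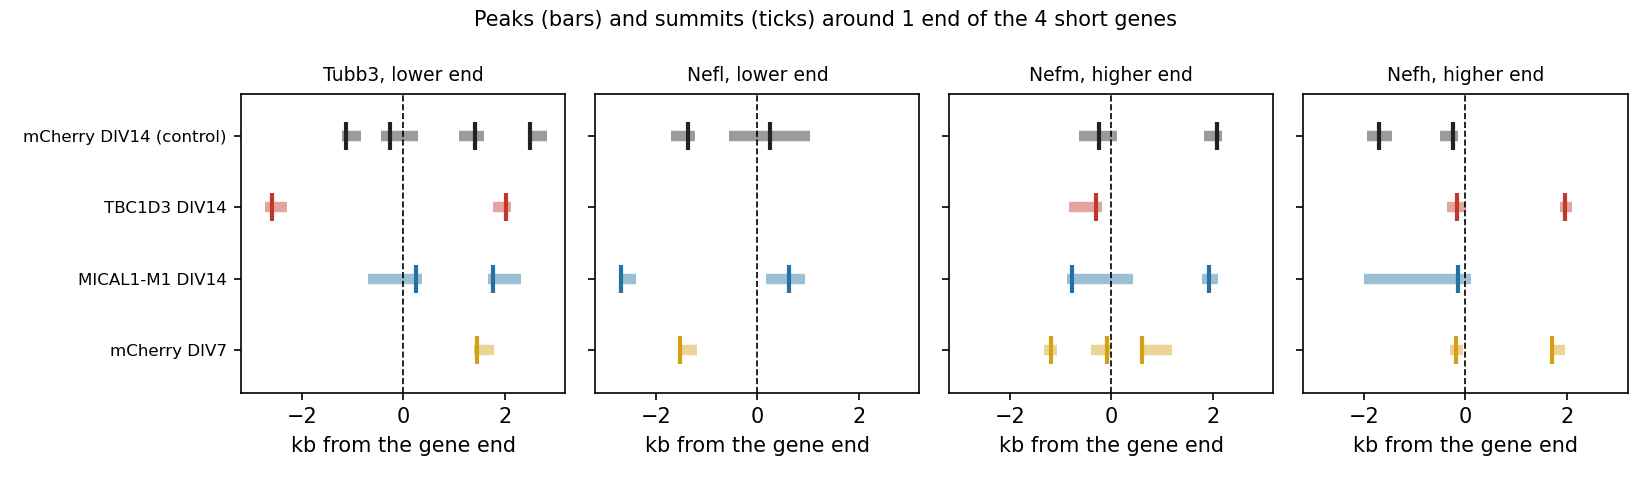
Peaks (thick bars) and their summits (ticks) within 3 kb of 1 end of Tubb3, Nefl, Nefm and Nefh in the 4 libraries; the horizontal axis is kb from the gene end (dashed line), with positive values toward higher coordinates. At Nefh a summit lies 145 to 240 bp inside the gene in each library, and at Tubb3 only the control and MICAL1-M1 peaks span the end.

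The growth cone genes followed different courses. At Stmn2 (chromosome 3, 8509527 to 8561604) the control's summit lay 1 bp outside the lower end with 11 fragments (2.48-fold) and that of MICAL1-M1 403 bp outside it with 7 (2.10-fold). With TBC1D3 and at DIV7 the nearest summits to that end lay inside the gene, at 1893 and 1482 bp, with 6 fragments each (3.16-fold and 3.04-fold). These 4 libraries thus all had a summit within 3 kb of the lower end of Stmn2, and the 1 kb window separated them.

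Gap43 (chromosome 16, 42248552 to 42340651) had its strongest peak near the higher end in the 3 DIV14 libraries, at different distances. The control's lay 2271 bp inside (42337591 to 42338912, 15 fragments over 3.56, 3.51-fold, q = 0.0189). That of MICAL1-M1 lay 173 bp inside (42340081 to 42340699, 13 fragments over 2.61, 3.88-fold, q = 0.0335), and that of TBC1D3 595 bp inside with 6 fragments (3.16-fold, q = 1). At DIV7 the strongest Gap43 peak lay 9599 bp inside the gene. Gap43 therefore counts as occupied within 1 kb with TBC1D3 and MICAL1-M1 and not in the control. The control's peak at q = 0.0189, with its summit 2271 bp inside the end, lay outside that window.

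Among the microtubule-binding genes, Map2 (chromosome 1, 66175202 to 66442583) had a peak at or near its start in each library. The control's peak there, from 66174957 to 66176874, had 16 fragments over 4.73 (2.97-fold, q = 0.0591). With TBC1D3 the strongest summit lay 302 bp before the annotated gene start with 7 fragments (3.42-fold), and a further one 998 bp before it, just within the 1 kb window. The MICAL1-M1 peak was 3398 bp wide and its summit, 1069 bp inside the gene with 13 fragments, fell just outside that window, though it lay 942 bp from the start of transcription in the promoter entry. At DIV7 summits lay 652 bp before the start with 4 fragments and 1084 bp after it with 6.

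Map1b (chromosome 13, 99421464 to 99516602) is transcribed from its higher end. The control had a summit 428 bp outside that end with 13 fragments (2.51-fold) and its strongest peak 1577 bp inside it (99514774 to 99515478, 17 fragments over 3.93, 3.65-fold, q = 0.00571). That peak had the lowest p among the listed peaks at the 10 genes. TBC1D3 had summits 257 bp outside the higher end and 138 bp inside the lower one, with 4 fragments each, and the nearest ones of MICAL1-M1 and DIV7 to the higher end lay 1919 and 1305 bp inside it.

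Mapt (chromosome 11, 104229409 to 104332090), the tau gene, had no summit within 1 kb of an end in any library, as was the case for 27.0% of all genes. Its strongest control peak lay 4764 bp inside the lower end with 16 fragments over 4.37 (3.17-fold, q = 0.0345), and the strongest at DIV7 8077 bp inside the higher end with 7 fragments (3.50-fold).

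Along the gene bodies, Map2 and Gap43 held many ATRX summits in the control and MICAL1-M1 libraries and far fewer in the other pair. Map2 held 52 summits in the control, 62 with MICAL1-M1, 26 with TBC1D3 and 21 at DIV7. Per 100 kb of its 267 kb this is 19.4 in the control (14.5 to 25.5), 23.2 with MICAL1-M1 (17.8 to 29.7), 9.72 with TBC1D3 (6.35 to 14.2) and 7.85 at DIV7 (4.86 to 12), all with exact Poisson intervals. Those of the first pair do not overlap those of the second, but they cover counting error only and are no test between conditions. Over all protein-coding gene bodies the deeper pair was the lower one, with 5.10 in the control and 6.78 with MICAL1-M1, against 7.92 with TBC1D3 and 8.15 at DIV7. With the lists cut to the length of the shortest, this turned: all genes then had 5.10 in the control, 4.78 with MICAL1-M1, 3.83 with TBC1D3 and 3.67 at DIV7, so the deeper pair was higher, as at Map2.

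Gap43 showed the same division. It held 20 summits in the control, 22 with MICAL1-M1, 7 with TBC1D3 and 7 at DIV7. Per 100 kb of its 92.1 kb these are 21.7 (13.3 to 33.5), 23.9 (15.0 to 36.2), 7.60 (3.06 to 15.7) and 7.60 (3.06 to 15.7), so the intervals of the deeper pair overlap those of the shallower pair slightly. The comparisons with long genes and with flanks, and the totals without Map2 and Gap43 given further on, were chosen after the counts had been seen. Among 4945 genes of at least 50 kb, 0.667% had a density as high as that of Map2 in the control and 0.283% with MICAL1-M1, and for Gap43 the shares were 0.364% and 0.202%. With TBC1D3 27.7% of these genes were at or above Map2 and 48.3% at or above Gap43, and at DIV7 47.4% and 50.4%. Map2 and Gap43 thus lay near the top of long genes in the deeper pair and near the middle, or for Map2 with TBC1D3 somewhat above it, in the other pair.

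**Figure D3:**
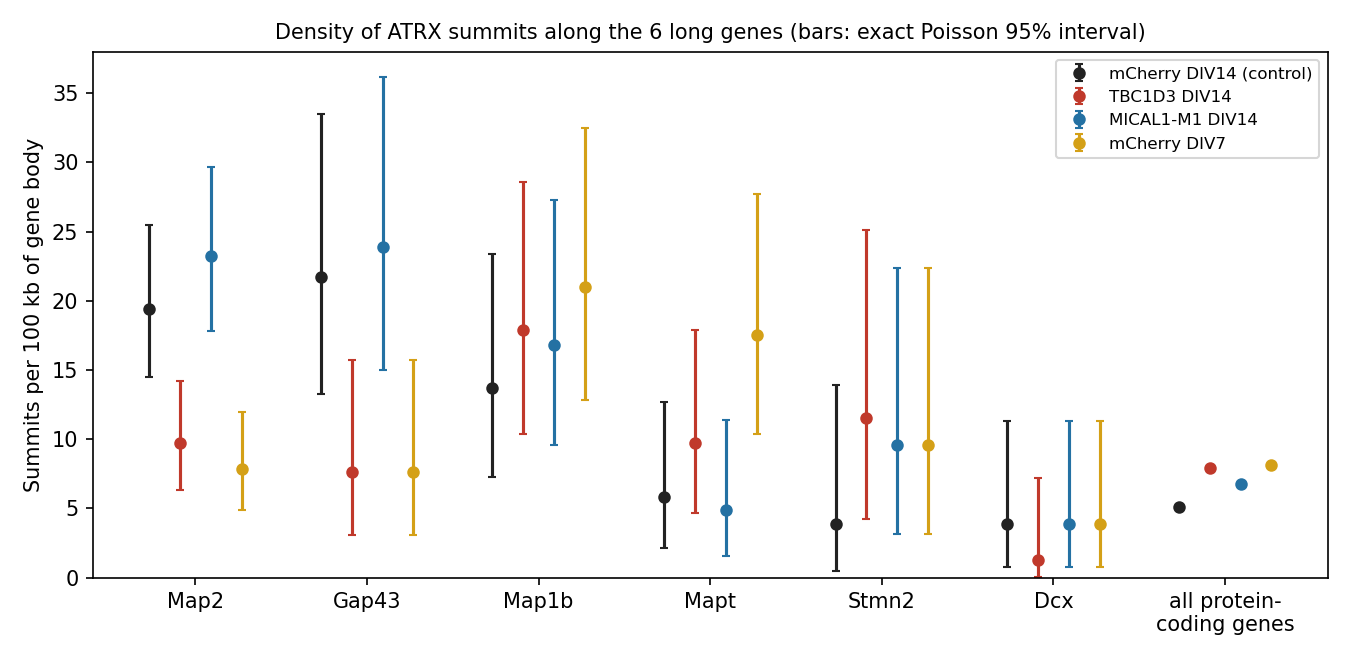
ATRX summits per 100 kb of gene body (linear axis) in the 6 members over 50 kb and over all protein-coding genes, by library; points are the counts per length of 1 library and bars exact Poisson 95% intervals, which cover counting error only. Map2 lies at 19.4 and 23.2 in the control and MICAL1-M1 libraries and at 9.72 and 7.85 in the other pair, while over all genes, in these uncut lists, the first pair is the lower one (5.10 and 6.78, against 7.92 and 8.15).

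In the deeper pair of libraries the flanks of Map2 and Gap43 held fewer summits than the genes. Totals over equal lengths do not show where the density changes. In the control, the region of equal length below Map2 held 7 summits and the one above it 15, against 52 in the gene. With MICAL1-M1 the numbers were 16 and 25, against 62. With TBC1D3 they were 26 and 21, against 26, and at DIV7 28 and 18, against 21, so the gene did not stand out from its surroundings in those lists. Around Gap43 the control had 4 and 7 summits in the flanks, against 20 in the gene, and MICAL1-M1 4 and 10, against 22. TBC1D3 had 7 and 7 in the flanks of Gap43, against 7, and DIV7 11 and 8, against 7.

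In the control and MICAL1-M1, summits lay in every segment of Map2. In 5 equal segments of 53.5 kb, from the start on, the control had 14, 8, 9, 15 and 6 summits and MICAL1-M1 18, 11, 10, 16 and 7. With TBC1D3 they were 3, 12, 4, 5 and 2, and at DIV7 6, 4, 6, 2 and 3. The control's peaks covered 13.2% of Map2 and those of MICAL1-M1 12.6%, against 3.80% with TBC1D3 and 2.74% at DIV7. Peaks were also wider over the whole lists of that pair, with medians of 431 and 404 bp, against 324 and 329 bp. The part of width in the coverage was not tested. Of the 53 control peaks at Map2 (3 kb on each side included), 16 met a peak of MICAL1-M1, 8 one of TBC1D3 and 5 one of DIV7. Over all control peaks the shares were 22.5%, 12.7% and 12.1%. In each comparison most control peaks thus had no counterpart at the same place, at Map2 and over the whole list. Control peaks with a q of at most 0.05 inside Map2 lay at 17.2, 149 and 212 kb from the start, with 15, 17 and 18 fragments.

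**Figure D4:**
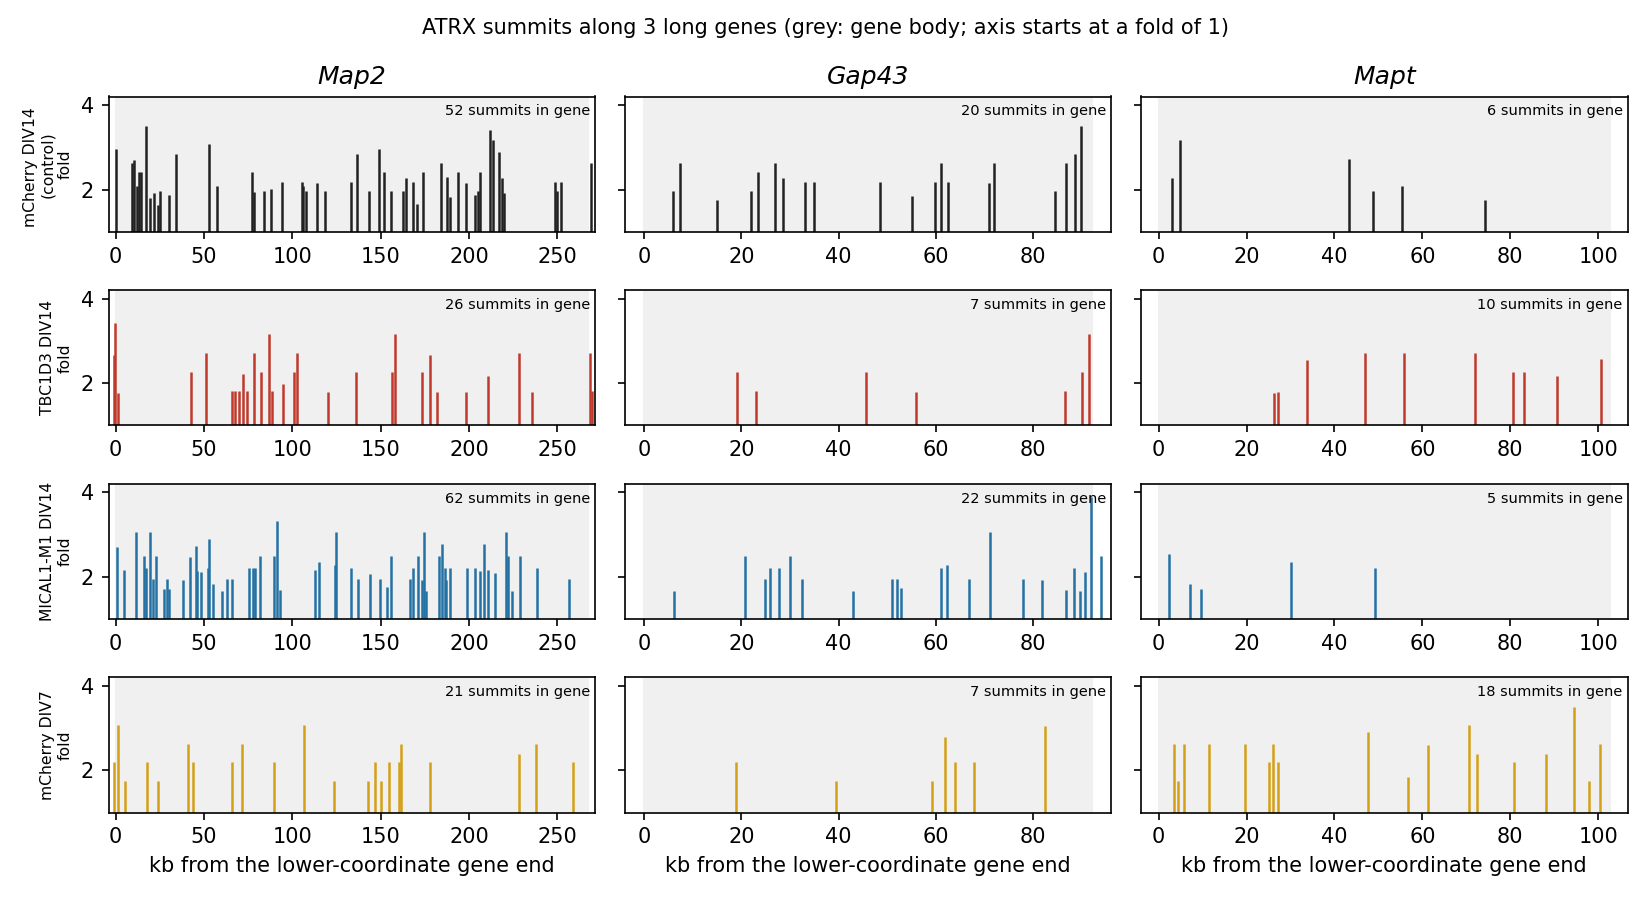
Each line is an ATRX summit along Map2, Gap43 or Mapt, at its distance in kb from the lower-coordinate gene end, with the authors' fold as its height (axis from 1); rows are the 4 libraries and grey marks the gene body. Map2 and Gap43 hold more summits in the control (52 and 20) and MICAL1-M1 (62 and 22) rows than in the others, and Mapt holds the most at DIV7 (18).

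Mapt and Map1b did not share this division. Mapt held 6 summits in the control, 5 with MICAL1-M1, 10 with TBC1D3 and 18 at DIV7. Per 100 kb its density at DIV7 was 17.5 (10.4 to 27.7), against 5.84 (2.14 to 12.7) in the control, and 1.74% of genes of at least 50 kb were as dense at DIV7, compared with 31.6% in the control, 27.5% with TBC1D3 and 57.5% with MICAL1-M1. The flanks of Mapt held 8 and 4 summits at DIV7. A count at DIV7 of at least 2 times the control's, with a control count of 0 taken as 1, was found in 49.2% of such genes. With lists of equal size Mapt held 6 summits in the control and 15 at DIV7. Of these genes 0.627% were then as dense at DIV7 and 19.7% had at least 2 times the control's count. At the cut in the DIV7 list, peaks of equal p and fold were kept in order of chromosome name. Those at Mapt (chromosome 11) stayed, while those at Gap43 (chromosome 16) did not. The count of 15 and both shares depend partly on that order. Map1b was dense in every library, with 13 summits in the control, 17 with TBC1D3, 16 with MICAL1-M1 and 20 at DIV7. Genes at least as dense as Map1b made up 3.52%, 1.74%, 2.87% and 0.627% of the long genes. Stmn2 held 2, 6, 5 and 5 summits in the same order of libraries, where 49.4%, 15.6%, 22.1% and 30.9% of the long genes were at least as dense.

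Whether the lower counts at Map2 and Gap43 stood out depended on how the lists were compared. Among 1188 genes of at least 50 kb with at least 10 control summits, 5.89% had at most 1 summit per 2 of the control with TBC1D3, 6.65% at DIV7 and 2.61% in both, as Map2 (exactly at this limit with TBC1D3) and Gap43 did. Over these genes the median ratio to the control was 1.14 with TBC1D3 and 1.2 at DIV7, against 0.500 and 0.404 for Map2 and 0.350 and 0.350 for Gap43. When each list was cut to its 96670 strongest peaks by p, an alternative applied to single genes after the data were seen, Map2 held 52, 13, 52 and 16 summits (control, TBC1D3, MICAL1-M1, DIV7) and Gap43 20, 4, 10 and 2. The share of genes at or under that limit in both lists was then 32.9%. In the lists that were shortened, the cut fell among peaks of equal p and fold, which were kept in order of chromosome name. With MICAL1-M1 and at DIV7, such ties were kept at Map2 (chromosome 1) and dropped at Gap43 (chromosome 16). These counts and the 32.9% therefore depend partly on chromosome name. Both shares are over genes that were chosen for many control summits. The background depth of the libraries, 3.56 and 2.61 fragments against 1.22 and 1.28, divides them in the same way, and its part in the result was not tested.

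Taking all 10 gene bodies, with 717 kb, summits numbered 103 in the control, 118 with MICAL1-M1, 71 with TBC1D3 and 78 at DIV7. Without Map2 and Gap43 the other 8 genes held 31, 34, 38 and 50, or 8.66 (5.88 to 12.3), 9.50 (6.58 to 13.3), 10.6 (7.51 to 14.6) and 14 (10.4 to 18.4) per 100 kb in the control, MICAL1-M1, TBC1D3 and DIV7. The intervals with MICAL1-M1 and TBC1D3 include the values over all protein-coding genes, 6.78 and 7.92. Those in the control and at DIV7 lie above the values over all protein-coding genes, 5.10 and 8.15. Mapt and Map1b held 18 and 20 of the 50 summits at DIV7, and 6 and 13 of the 31 in the control. The median peak at the 10 genes had 10 fragments in the control, 4 with TBC1D3, 7 with MICAL1-M1 and 5 at DIV7, and the median over each whole list was 9, 4, 7 and 4. Of the 110 control peaks at the 10 genes, 3 kb on each side included, 33.6% shared at least 1 bp with a peak of MICAL1-M1, compared with 22.5% of all control peaks. With TBC1D3 the share was 14.5%, against 12.7%, and at DIV7 13.6%, against 12.1%. Map2 and Gap43 held 53 and 20 of these 110 peaks, and MICAL1-M1 peaks covered 12.6% and 10.3% of those genes; the part of this in the overlap was not tested. Of the peaks at the 10 genes, 6 of 110 in the control had a q of at most 0.05 (4.19% of the whole list), 2 of 123 with MICAL1-M1 (0.463%), 0 of 79 with TBC1D3 (0.205%) and 0 of 85 at DIV7 (0.236%).

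Other cytoskeleton genes were counted in 6 lists with 85 genes in all. Within 1 kb of a gene end, 56 of the 85 had a summit in the control (65.9%, against 42.3% of all genes), 58 with MICAL1-M1 (68.2%, against 38.7%), 40 at DIV7 (47.1%, against 33.2%) and 31 with TBC1D3 (36.5%, against 33.4%). Microtubule-associated genes other than the members had one in 17, 16, 10 and 12 of 22 cases in that order. Camsap2, which binds microtubule minus ends, had the highest control fold of this list (4.38-fold, q = 0.000177), followed by the doublecortin-like kinase gene Dclk1 (4.16-fold, q = 0.000676). Camsap3 had the highest with TBC1D3 (4.5-fold, 9 fragments, q = 0.0116), and Dclk2 with MICAL1-M1 (3.88-fold, q = 0.0335).

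The lists are read against the same shares of all genes, 42.3% in the control, 38.7% with MICAL1-M1, 33.2% at DIV7 and 33.4% with TBC1D3. Of 16 tubulin genes, 9 had a summit within 1 kb of an end in the control (56.2%), 9 with MICAL1-M1 (56.2%), 5 at DIV7 (31.2%) and 3 with TBC1D3 (18.8%), the last pair below all genes. Tubb2a, a neuronal beta-tubulin gene, led in the control (3.72-fold, q = 0.00701), with TBC1D3 (3.61-fold) and, level with Tubd1, at DIV7 (3.07-fold). Of 18 growth cone genes, 13 had one in the control, 15 with MICAL1-M1, 12 at DIV7 and 8 with TBC1D3. The actin-severing cofilin gene Cfl1 led in the control (3.77-fold, q = 0.00229) and the actin-bundling fascin gene Fscn1 with MICAL1-M1 (3.62-fold, q = 0.0426). Intermediate filament genes other than neurofilaments had one in 6, 6, 7 and 2 of 10 cases (control, MICAL1-M1, DIV7, TBC1D3), with the synemin gene Synm highest with MICAL1-M1 (4.43-fold, q = 0.00154). Motor and severing genes had one in 7, 10, 4 and 4 of 13 cases, of which 4 of 13 is 30.8%, and spectrin and ankyrin genes in 4, 2, 2 and 2 of 6, of which 2 of 6 is 33.3%.

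**Figure D5:**
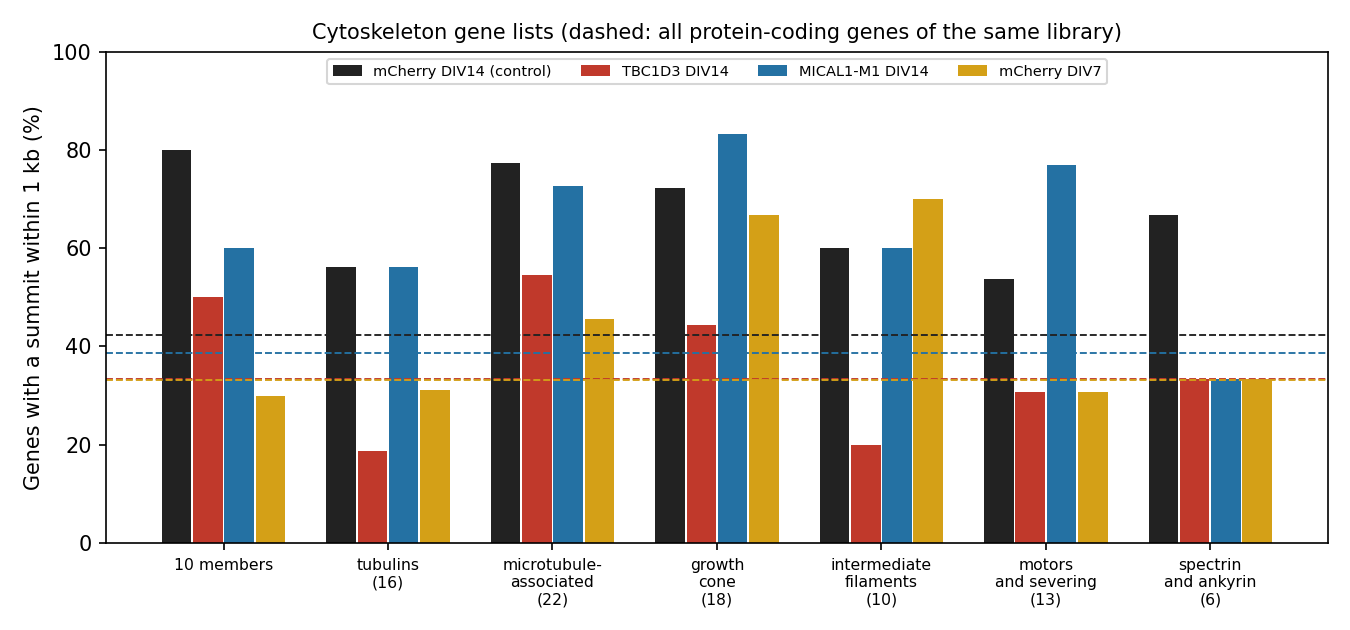
Percent of genes with an ATRX summit within 1 kb of a gene end in the 10 genes and in 6 other cytoskeleton lists (number of genes in brackets), by library; dashed lines mark the percent over all protein-coding genes in the library of that colour, with the TBC1D3 and DIV7 lines nearly on each other. The growth cone list reaches 72.2% in the control and 44.4% with TBC1D3.

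Genes of these lists were matched to the members by their pattern over the 4 libraries and both windows, 8 yes or no values in all. The pattern of Nefm and Nefh, a summit in every library and window, was shared by 13 list genes and 6.24% of all genes. Crmp1, Mapre1 and Mapre2 shared the pattern of Tubb3 and Stmn2, which 1.91% of all genes had. Dbn1, which encodes the actin-binding protein drebrin, and Stmn3 shared that of Map2 (1.12% of all genes), and Clasp1, Dpysl3, Spast and Tuba1a that of Nefl (1.99%). No gene of the lists shared the pattern of Dcx (0.886% of all genes), Mapt (0.429%), Map1b (0.745%) or Gap43 (0.48%). With shares this low, the lists are too short for the lack of a match to set these members apart. Of markers of other brain cells, 0 of 4 astrocyte, 2 of 4 oligodendrocyte and 0 of 4 microglia genes were occupied within 1 kb in the control, against 42.3% of all genes; lists of 4 are too short to set against that share. These numbers were 2, 2 and 1 with TBC1D3, 1, 1 and 0 with MICAL1-M1 and 2, 2 and 2 at DIV7. Gfap stands in both the intermediate filament and the astrocyte list.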

How the data were processed

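ATRX ChIP-seq peak lists of 4 libraries were analysed; an input sample of the series was not analysed here. The submitters' processing notes name MACS 1.4.2, the aligner Bowtie 1.3.0, ChIPseeker 1.26.2 and also SAMtools 1.9; no source used here gives their settings or the caller behind these columns. The deposited lists have the narrowPeak layout, with 1 list per library. The deposited fold is a ratio of ChIP pileup to local background with 1 added to each. It is thus lower than the plain ratio, most so where the background is low. The authors' -log10 columns hold p and q-values, and the deposited score repeats the p. Fragments at a summit were recovered as the whole number that fits both fold and p to a Poisson tail within 0.001 in log10 p, which held for 99.96% to 99.98% of peaks. The unit is thus fragments of ChIP DNA, and read totals were not used here.

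Gene spans came from RefSeq, GRCm38.p6, chromosomes 1 to 19, X and Y. The table has no exons, so exon or intron was not assigned. The files name no build; their scaffold names occur in GRCm38, which was assumed. Summits (peak start plus offset) were counted within 1 kb and 3 kb of both ends and in gene bodies with Python 3.11.15, pandas 2.3.3 and scipy 1.17.1, tested on simulated data. A peak counted as overlapped from 1 bp on. The members and lists were chosen with earlier results of these data known. All 10 members are named; of the other lists, at most the 2 genes with the highest fold per list and library, and genes sharing a member's pattern over libraries and windows where few do. No p-value was computed between conditions. Alternatives were a 3 kb window, any peak base in the window, p of at most 0.01, q of at most 0.05, lists of equal size, the start of transcription alone, flanks of 3 kb and an overlap of 50%. For lists of equal size, peaks were ranked by p and then fold, and ties were kept in order of chromosome name and position. Intervals are exact at 95% and cover counting error only.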

Additional observations from a re-analysis of the deposited data

How the results depend on the processing

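The order of the control above the other libraries in gene-end counts held in a 3 kb window, with any peak base in the window, at p of at most 0.01, with lists of equal size and at the start of transcription, but its size moved. All genes had the control highest as well at p of at most 0.01 (36.8%, against 24.4% with TBC1D3, 30.6% with MICAL1-M1 and 15.2% at DIV7) and with lists of equal size (42.3%, against 19.2%, 33.4% and 17.6%). In the 3 kb window the counts were 10 in the control, 8 with TBC1D3, 9 with MICAL1-M1 and 9 at DIV7, differences of -1 for MICAL1-M1 and -1 for DIV7. Over all genes the control was the lowest in that window (53.0%, against 57.7% with TBC1D3, 53.2% with MICAL1-M1 and 59.3% at DIV7). With any peak base in the window 5 genes were occupied at DIV7, and the differences were -1 for MICAL1-M1 and -3 for DIV7. At q of at most 0.05 the counts were 0 in the control, 0 with TBC1D3, 2 with MICAL1-M1 and 0 at DIV7, so the MICAL1-M1 difference turned to 2 and the others to 0. At the start of transcription, known for 4 members, they were 4, 2, 2 and 1, a difference of -3 at DIV7. For any peak base in the window and for the start of transcription, shares of all genes are not given here. Summits per 100 kb of the 10 gene bodies, 14.4, 9.90, 16.4 and 10.9 (control, TBC1D3, MICAL1-M1, DIV7), were 10.3, 6.55, 10.5 and 5.30 at p of at most 0.01 (all genes 3.56, 5.26, 3.98 and 2.87) and 0.836, 0.00, 0.279 and 0.00 at q of at most 0.05. With lists of equal size they were 5.72 with TBC1D3, 12.3 with MICAL1-M1 and 7.11 at DIV7 (all genes 3.83, 4.78 and 3.67). Which of the tied peaks stayed in these lists depended on chromosome name. Control peaks overlapped by TBC1D3, MICAL1-M1 and DIV7 numbered 16, 37 and 15 of 110, then 8, 19 and 5 when 50% of the control peak had to be covered, and 10, 23 and 7 of 80 at p of at most 0.01. The stricter thresholds and equal lists leave fewer peaks by construction, and the cause of the other moves was not tested. At the usual background 3 fragments made a peak with TBC1D3 and at DIV7, against 7 in the control. A peak of 4 fragments at that background passed p of at most 0.01 with TBC1D3 and missed it at DIV7. No paired analysis was possible because each group has 1 library.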

Other observations

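At p of at most 0.01, applied to single genes after the data were seen, Map2 held 35 summits in the control, 14 with TBC1D3, 43 with MICAL1-M1 and 7 at DIV7. Gap43 held 15, 4, 10 and 2 under the same threshold. Mapt had the opposite order, with 4, 7, 3 and 13 summits. Map1b held 9, 13, 10 and 9 summits at p of at most 0.01. Per 100 kb of all protein-coding gene bodies, this threshold left 3.56 in the control, 5.26 with TBC1D3, 3.98 with MICAL1-M1 and 2.87 at DIV7. By the authors' caller, a peak of 4 fragments at the usual background had p = 0.0101 at DIV7 and 0.0082 with TBC1D3. The threshold therefore removed such peaks at DIV7 and kept them with TBC1D3, so these 2 libraries are not cut alike.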
